A study of Mus musculus with 26 samples.

Results

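The 9 genes described here, Mbp, Mal, Mag, Mog, Mobp, Cldn11, Trf, Ugt8a and Ermn, encode proteins of myelin and of the oligodendrocytes that make it. They were taken by symbol from the gene counts of 26 RNA-seq libraries, and all 9 were found among the 31735 genes listed in every file. The libraries come from the accumbens nucleus, the ventral part of the striatum and a hub of reward learning, in adult mice of the Drd2-TRAP line CP101 that had self-administered cocaine or saline intravenously with long access. In this line the promoter of Drd2, the dopamine D2 receptor gene, drives ribosomal protein L10a fused to EGFP, and pulling down EGFP collects RNA bound to the ribosomes of the cells that use the promoter (translating ribosome affinity purification, TRAP). In the accumbens these are mainly D2-type medium spiny neurons, and oligodendrocytes are not a target of the line.

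Of the 26 libraries, 24 hold pulled-down RNA: 8 from cocaine mice of a nonescalating group after withdrawal, 6 from saline mice after withdrawal, and, without withdrawal in their titles, 2 from an escalating and 5 from a nonescalating cocaine group and 3 from saline mice. The other 2 libraries are input, the total RNA before the pull-down, 1 from nonescalating cocaine mice and 1 from saline mice, neither after withdrawal. All mice carry the same transgene and the same mixed background, labelled as FVB/N-Swiss Webster crossed for at least 9 generations to C57BL/6. Age, sex, dose and the length of withdrawal are not given in the labels. The library numbers form 2 sets, up to 1825 and from 1836, and the second set holds withdrawal groups only. The description field of the 5 nonescalating libraries contains the word for withdrawal, their titles lack it, and the titles were followed here. Whether a library is 1 animal is not stated, so the p-values measure only the spread between libraries. The withdrawal libraries of the second set repeat titles and replicate numbers of the first, 3 in saline and 3 in cocaine mice. If the same number means the same animals, the 6 saline and 8 cocaine libraries stand for 3 and 5 samples, and p-values that count them all are too small.

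Oligodendrocytes wrap axons with a compacted sheet of membrane. Mbp, myelin basic protein, sticks the inner faces of that sheet together, and Mobp is a second small basic protein of compact myelin. The mRNAs of both are known to be carried out of the cell body and translated in the myelin processes, whereas mRNAs of myelin proteins with membrane spans are translated at the endoplasmic reticulum. Mag sits on the membrane facing the axon, Mog is on the outermost face of the sheath, Cldn11 forms its tight junctions, and Mal is a raft proteolipid used in sorting myelin membrane. Trf is transferrin, an iron carrier made by oligodendrocytes and choroid plexus, Ugt8a makes galactosylceramide, the main glycolipid of myelin, and Ermn is a cytoskeletal protein of mature oligodendrocytes. The transcription factors SOX10 and MYRF switch on many of these genes.

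On GRCm38, with the GENCODE annotation, Mal lies at chr2:127633226-127656695 on the minus strand, Mag at chr7:30899176-30914873 (minus), Mog at chr17:37010743-37023398 (minus), Mobp at chr9:120149707-120181484 (plus), Cldn11 at chr3:31149920-31164324 (plus), Trf at chr9:103204001-103230444 (minus), Ugt8a at chr3:125865271-125938619 (minus) and Ermn at chr2:58045113-58052864 (minus). Exons of 3 of the genes overlap those of another gene. Trf shares 2108 exonic bases with Gm20425 and Mobp shares 79 with Gm38642, both on the same strand, and Ermn shares 237 with Galnt5 on the opposite strand. The strand setting of the counting is not given, so reads in these stretches cannot be assigned to 1 gene. The counts are per gene, so the golli transcripts of the Mbp locus, known from neurons and immune cells, are counted with those of classic myelin basic protein.

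RefSeq promoter entries (GRCm38.p6) matched 7 of the 9 genes, all but Mbp and Trf. The 250 bases before each start were searched on both strands for CTGGCAC and CTGGTAC, 2 forms of the MYRF motif, and for ACAAAG and ACAATG, 2 forms of the SOX motif. A MYRF form was found in 2 of 7 promoters, Mag (9 to 3 bases before the start) and Mog (83 to 77 bases before it), and in 5.883% of 27025 promoters of the same length. A SOX form was found in 3 of 7, Mag, Mobp and Ermn, and in 25.428% of all promoters. Mobp held 6 matches, all of them CTTTGT on the gene's strand and in a T-rich stretch. In all 6 promoters (0.022%), Mobp among them, held at least 5, a cutoff used for this count only. These are matches of letters only. The 3 stretches that hold them in Mag, Mog and Mobp are shown 5′ to 3′ on the gene's strand, because the matches lie in them; capitals mark every match on either strand. The stretch of Mag is chr7:30914923-30915022, that of Mog chr17:37023429-37023528 and that of Mobp chr9:120149492-120149641.
Mag: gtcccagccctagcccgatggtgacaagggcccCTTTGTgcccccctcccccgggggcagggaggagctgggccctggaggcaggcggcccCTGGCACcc
Mog: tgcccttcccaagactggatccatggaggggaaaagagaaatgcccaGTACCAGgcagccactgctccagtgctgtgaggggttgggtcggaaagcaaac
Mobp: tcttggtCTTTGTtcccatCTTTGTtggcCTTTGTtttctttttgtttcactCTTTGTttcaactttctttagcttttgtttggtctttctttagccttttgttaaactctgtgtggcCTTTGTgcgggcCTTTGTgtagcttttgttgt

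Counts in genes ran from 1.54 to 17.5 M (M for 1e6 reads, median 3.27 M) in pull-down libraries and were 37.5 M in the nonescalating input and 4.70 M in the saline input. Levels are given as CPM, counts per 1e6 counts in genes after TMM scaling. The pull-down was checked on Drd2, which stood at 883 to 3049.8 CPM in 23 pull-down libraries, against 379 CPM in the nonescalating and 283 CPM in the saline input, and at 247 CPM in nonescalating replicate 4. That library also had the highest level of the nuclear RNA Malat1 (78069 CPM, against 7394 to 35754 CPM in the other pull-downs). Of 8 listed D2-neuron genes, 8 had positive fold changes in pull-down over input (median log2 1.79), and so had 10 of 10 endothelial (3.996) and 7 of 7 mural genes (4.29), while 6 of 6 D1-neuron genes had negative ones (-2.11).

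All 9 genes were detected in both inputs, and together they took 0.292% of the gene counts in the nonescalating input and 0.129% in the saline input. Per length of exon, the mean levels in the inputs ran from 115 CPM per kb for Mbp over 72.0 for Mal, 59.1 for Mobp, 46.2 for Ermn, 42.6 for Trf, 17.7 for Cldn11, 15.97 for Mog and 15.8 for Mag to 10.9 CPM per kb for Ugt8a. Every member was higher in the nonescalating than in the saline input, by the ratio of 2 single libraries with no replicate. In the 8 pull-downs of the same groups the order began with Mbp (100.02 ± 82.8 CPM per kb, SD, n = 8) and Mobp (64.7 ± 62.6), followed by Mal (26.6), Trf (7.42), Ermn (3.81), Mag (3.65), Cldn11 (2.99), Mog (1.80) and Ugt8a (1.06). The spreads of Mbp and Mobp over the 8 libraries overlapped, but within each of these libraries Mbp was above Mobp. The 4 genes from Ermn to Mog overlapped as well, and their order within libraries was not tested. In the 24 pull-downs Mbp, Mal, Mobp, Trf and Ugt8a were counted in every library, while Mog and Cldn11 had 0 counts in 3 libraries each and at most 3 counts in 8 and 9 libraries.

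**Figure D1:**
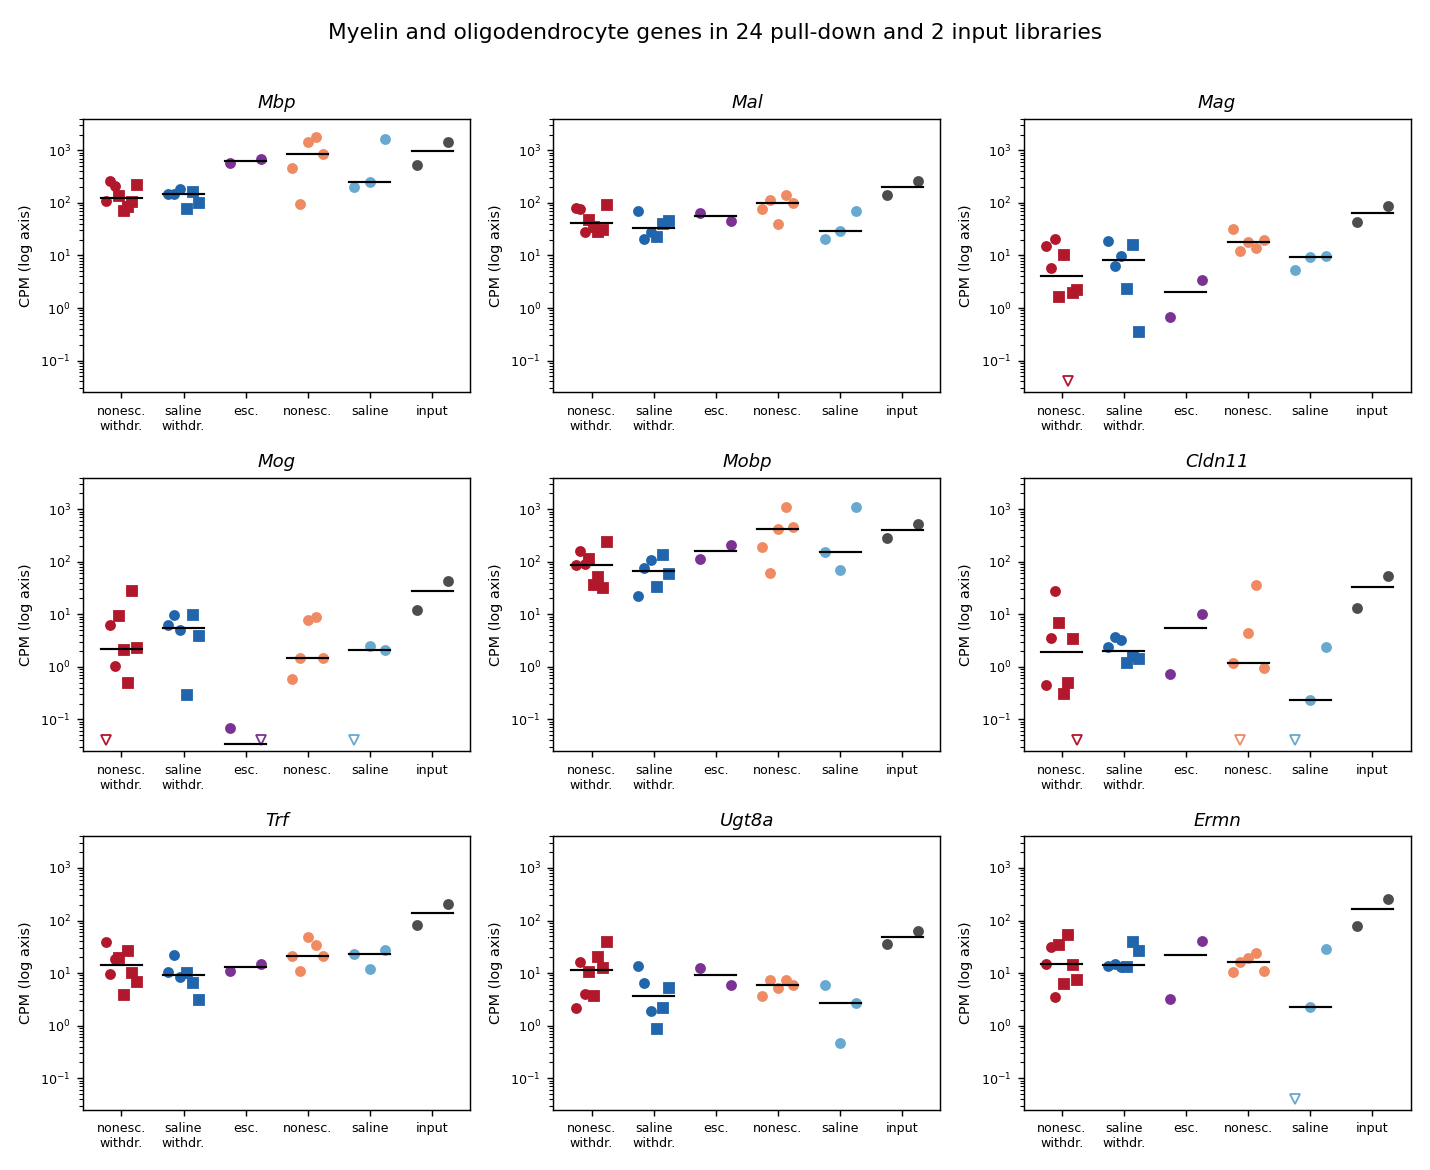
Level of each of the 9 genes in every library, in CPM on a log axis. Groups run from nonescalating and saline after withdrawal through escalating, nonescalating and saline without it to the 2 inputs. Circles are libraries numbered up to 1825, squares those from 1836, open triangles libraries with 0 counts (drawn at the foot of the axis), and lines medians. Only Mbp and Mobp have pull-down libraries above both inputs.

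Pull-down against input asks which RNAs are collected with the tagged ribosomes. Of the 9 genes, 7 lay below both inputs in at least 7 of the 8 pull-downs, and 2, Mbp and Mobp, did so in 4 of 8. The fit compared 8 pull-downs of saline and nonescalating mice with the 2 inputs over 14929 genes, with edgeR's quasi-likelihood test and Benjamini-Hochberg adjustment. It called 38 genes (0.255%), all higher, and none of the 9. At an unadjusted p under 0.05 it had 7 of the 9, all lower, against 2.22% of all genes that were lower at that p (8.27% in either direction). DESeq2 called Mag, Trf and Ugt8a, gave no adjusted p for Cldn11 and Ermn, and limma voom called all 7. Both tests called many more genes in all than the 38 of edgeR, limma voom 1090. Of the 9, 8 had a negative fold change, as had 47% of all genes tested, and their median log2 was -2.51, against 0.07 over all genes. Input is the total RNA before the pull-down. A negative value means a smaller share in the pulled-down RNA, not fewer oligodendrocytes in the tissue. Between pull-downs, a bulk library cannot tell fewer oligodendrocytes or fragments of them from less RNA per cell.

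Among the proteins of the sheath surface, Mag stood at 5.29 to 31.8 CPM in the 8 pull-downs (median 12.9), against 85.7 CPM in the nonescalating and 42.7 CPM in the saline input. Mog stood at 0 to 8.76 CPM (median 1.79), against 42.2 and 12.2 CPM. Every pull-down was below both inputs for both genes, as for 6 of the 9 and for 4.13% of all genes. The log2 fold change was -2.28 for Mag (SE 0.64, adjusted p = 0.153) and -3.22 for Mog (SE 1.204, adjusted p = 0.392, by edgeR).

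Cldn11, the tight junction protein, stood at 0 to 35.4 CPM in the pull-downs (median 1.07), against 53.1 and 13.2 CPM in the inputs. Its groups overlapped through 1 library, nonescalating replicate 4, which at 35.4 CPM lay between the inputs; the log2 fold change was -3.34 (SE 1.46, adjusted p = 0.530, by edgeR), and single libraries left out moved it from -4.65 (without saline replicate 4) to -2.74 (without the saline input). Mal, the raft proteolipid, was the least reduced of the 7. It stood at 20.5 to 142 CPM (median 73.8), against 257 and 143 CPM, without overlap (log2 -1.64, SE 0.51, adjusted p = 0.225).

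The iron carrier, the glycolipid enzyme and the cytoskeletal gene had the smallest adjusted p-values. Trf stood at 11.02 to 47.5 CPM in the pull-downs (median 22.3), against 202 and 80.7 CPM in the inputs. Ugt8a stood at 0.468 to 7.35 CPM (median 5.47), against 64.0 and 35.1 CPM. Ermn stood at 0 to 28.1 CPM (median 13.8), against 259 and 77.0 CPM. In none of these 3 genes did the groups overlap. The log2 fold changes were -2.51 for Trf (SE 0.55, adjusted p = 0.0658), -3.50 for Ugt8a (SE 0.84, adjusted p = 0.0822) and -3.57 for Ermn (SE 0.89, adjusted p = 0.0928, by edgeR). Leaving out single libraries moved Ermn from -5.01, without saline replicate 4, to -2.91, without the nonescalating input.

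Mbp, whose locus is chr18:82475146-82585637 on the plus strand, and Mobp overlapped the inputs. Mbp stood at 462, 97.0, 1449, 1834 and 838 CPM in nonescalating and 204, 253 and 1639.9 CPM in saline pull-downs, against 1415 CPM in the nonescalating and 533 CPM in the saline input. Of the 8, 3 were above both inputs and 4 below both. Mobp stood at 187, 60.3, 424, 1100.5 and 467 CPM in nonescalating and 151, 69.5 and 1087 CPM in saline pull-downs, against 525 and 285 CPM, with 2 above and 4 below both inputs. The log2 fold change was -0.19 for Mbp (SE 0.81, adjusted p = 0.998) and 0.12 for Mobp (SE 0.88, adjusted p = 0.998, by edgeR), so these groups did not differ beyond their spread. Without nonescalating replicate 4, which had little Drd2, Mobp came to -0.27 and Mbp to -0.42. In mean level the 8 pull-downs held 87.0% of the input's Mbp and 109% of its Mobp, but 36.9% of its Mal and 8.26% of its Ermn. The medians of the 8 were 66.7% of the input mean for Mbp, 75.4% for Mobp, 36.9% for Mal and 8.24% for Ermn. The 14 pull-downs after withdrawal, which have no input of their own, all lay below both inputs for Mbp and Mobp. Their means were 14.8% of the input mean for Mbp and 21.9% for Mobp, against 22.98% for Mal and 12.1% for Ermn.

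**Figure D2:**
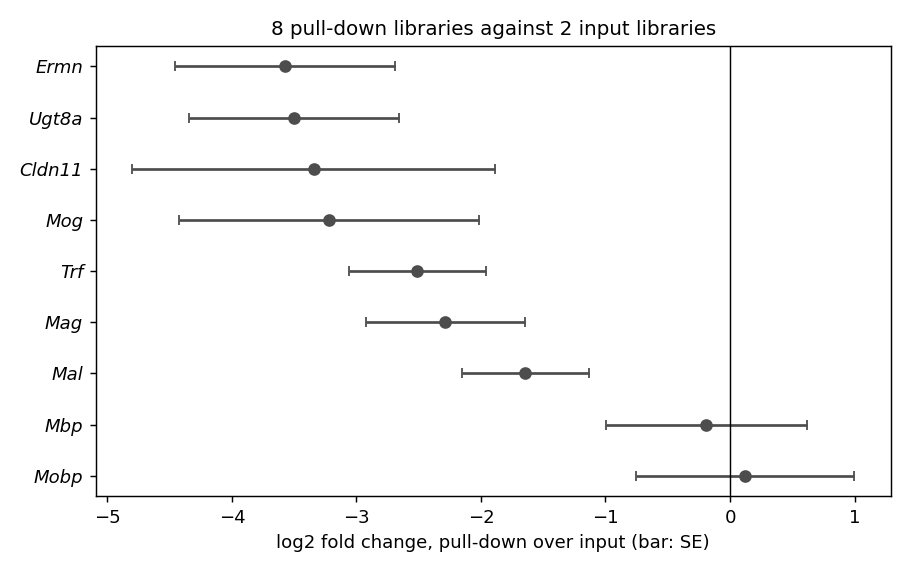
Log2 fold change of each gene in 8 pull-down libraries over 2 inputs, with bars of 1 SE, sorted by value. Mbp and Mobp lie at 0 within 1 SE, and the other 7 lie between -1.64 and -3.57.

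Other oligodendrocyte genes were set beside the 9. Of 28 further genes of mature oligodendrocytes and myelin, 25 could be tested, none passed, and 23 had negative fold changes (median log2 -1.68, 9 lower at an unadjusted p under 0.05). Car2, a carbonic anhydrase, came to -2.12 (SE 0.48, adjusted p = 0.0714, by edgeR). Of 10 oligodendrocyte transcription factors, 10 had negative fold changes (median -2.04), among them Myrf (-2.28, adjusted p = 0.265) and Olig2 (-3.45, adjusted p = 0.402). Of 7 tested genes of sphingolipid and cerebroside synthesis, the pathway that feeds Ugt8a, 5 were negative (median -0.45), with Fa2h, which hydroxylates myelin lipids, at -2.67 (adjusted p = 0.281). Of 10 tested genes of oligodendrocyte precursors, 7 were negative and 3 positive (median -0.49, range -6.52 to 3.44). At an unadjusted p under 0.05, 2 were higher and 2 lower. The smallest p-values belonged to the 2 higher ones, Itpr2 (3.44, adjusted p = 0.145) and Cspg4 (2.03, adjusted p = 0.154, by edgeR). In the same fit 10 of 10 endothelial genes (median 3.996) and 7 of 7 mural genes (median 4.29) were positive. The part of vascular cells in the values of Itpr2 and Cspg4 was not tested. Astrocyte genes were negative in 10 of 11 (median -0.99) and microglial genes in 4 of 9 (median 0.06). Of the genes of the choroid plexus, which also makes Trf, 2 of 5 could be tested (median -0.39, 0 passed), and of 3 genes of peripheral myelin 1 could (-0.75, not passed).

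Cocaine against saline was compared in 1 fit of the 24 pull-downs over 15854 genes, with group and library set as terms. In nonescalating cocaine against saline, 0 genes passed (0%) and none of the 9 did, with 1 of 9 at an unadjusted p under 0.05 (6.74% of all genes); DESeq2 and limma voom called none of the 9 either. All 9 fold changes were positive, as were 50.4% of those of all genes (median log2 0.92, against 0.01 over all genes). That median was 1.89 without saline replicate 4 and 0.43 without saline replicate 3. The smallest p was that of Mal, with 76.2, 112, 39.2, 142 and 100.1 CPM in nonescalating libraries and 20.5, 28.9 and 71.4 CPM in saline libraries. Of the 5 nonescalating libraries, 4 lay above every saline library; the log2 fold change was 1.21 (SE 0.57, adjusted p = 0.719 and unadjusted 0.0407, by edgeR), and 1.89 without saline replicate 4. Mag stood at 31.8, 12.1, 17.7, 13.7 and 19.3 CPM in nonescalating libraries and at 5.29, 9.25 and 9.68 CPM in saline libraries, without overlap and higher, as for 1 of the 9 and 1.31% of all genes (log2 1.203, SE 1.11, adjusted p = 0.910). In Mbp (0.41) and Mobp (0.03) every saline library lay inside the range of the nonescalating ones, whose replicate 2 was below all 3 and replicate 4 above all 3. Of the 25 further mature oligodendrocyte genes, 18 were positive (median 0.56) and 0 passed, and of 11 astrocyte genes 9 were positive (median 0.45). Against saline withdrawal libraries of the same set, the comparison that the description field would call for, Mal came to 1.27 (adjusted p = 0.9998).

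Escalating cocaine was measured in 2 libraries only. Against saline, 0 genes passed (0%), none of the 9 was at an unadjusted p under 0.05 (8.09% of all genes), and 4 of the 9 were positive, against 46.7% of all genes (median log2 -0.17). Mbp stood at 565 and 679.6 CPM, Mobp at 115 and 208 CPM, Mal at 65.1 and 46.2 CPM and Trf at 10.8 and 15.1 CPM in the escalating libraries. For each of Mbp, Mobp and Mal both escalating libraries lay inside the range of the saline libraries. Mag, at 0.671 and 3.36 CPM, lay below all 3 saline libraries (5.29 to 9.68 CPM; log2 -2.01, adjusted p = 0.747, by edgeR), as did 1 of the 9 and 6.48% of all genes. Ugt8a, at 5.996 and 12.3 CPM, lay above all 3 (0.468 to 5.95 CPM; log2 1.56, adjusted p = 0.807), as did 1 of the 9 and 7.76% of all genes. Without saline replicate 4 the median came to 1.13.

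Against nonescalating cocaine, 0 genes passed (0%), none of the 9 among them, and 2 of 9 had an unadjusted p under 0.05 (8.75% of all genes), Mag and Mog, both lower, as were 5.31% of all genes at that p. Mag stood at 0.671 and 3.36 CPM in escalating libraries and at 12.1 to 31.8 CPM in the 5 nonescalating ones, without overlap and lower, as for 2 of the 9 and 4.07% of all genes (log2 -3.22, SE 1.48, adjusted p = 0.558 and unadjusted 0.0374, by edgeR). Mog had 1 and 0 counts in the escalating libraries, against 59 counts over the nonescalating libraries. The ratio of its pooled CPM was 0.0149 (exact 95% interval 0.00037 to 0.0860, counting error only), and its unadjusted p was 0.0198. Of the 9, 7 were negative, against 54.5% of all genes. Their median was -0.76, the same with Mog at the upper end of that interval, against -0.12 over all genes. Median-of-ratios scaling moved the median of all genes in this comparison by -0.13. Of 11 astrocyte genes, 10 were negative here and 0 passed (median -0.94), with Gja1 and Fgfr3 at an unadjusted p under 0.05, and their summed CPM, at 1323 and 2004 in escalating libraries, lay inside the 455 to 2903 of the nonescalating ones. The part of these cells in the values of Mag and Mog was not tested.

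**Figure D3:**
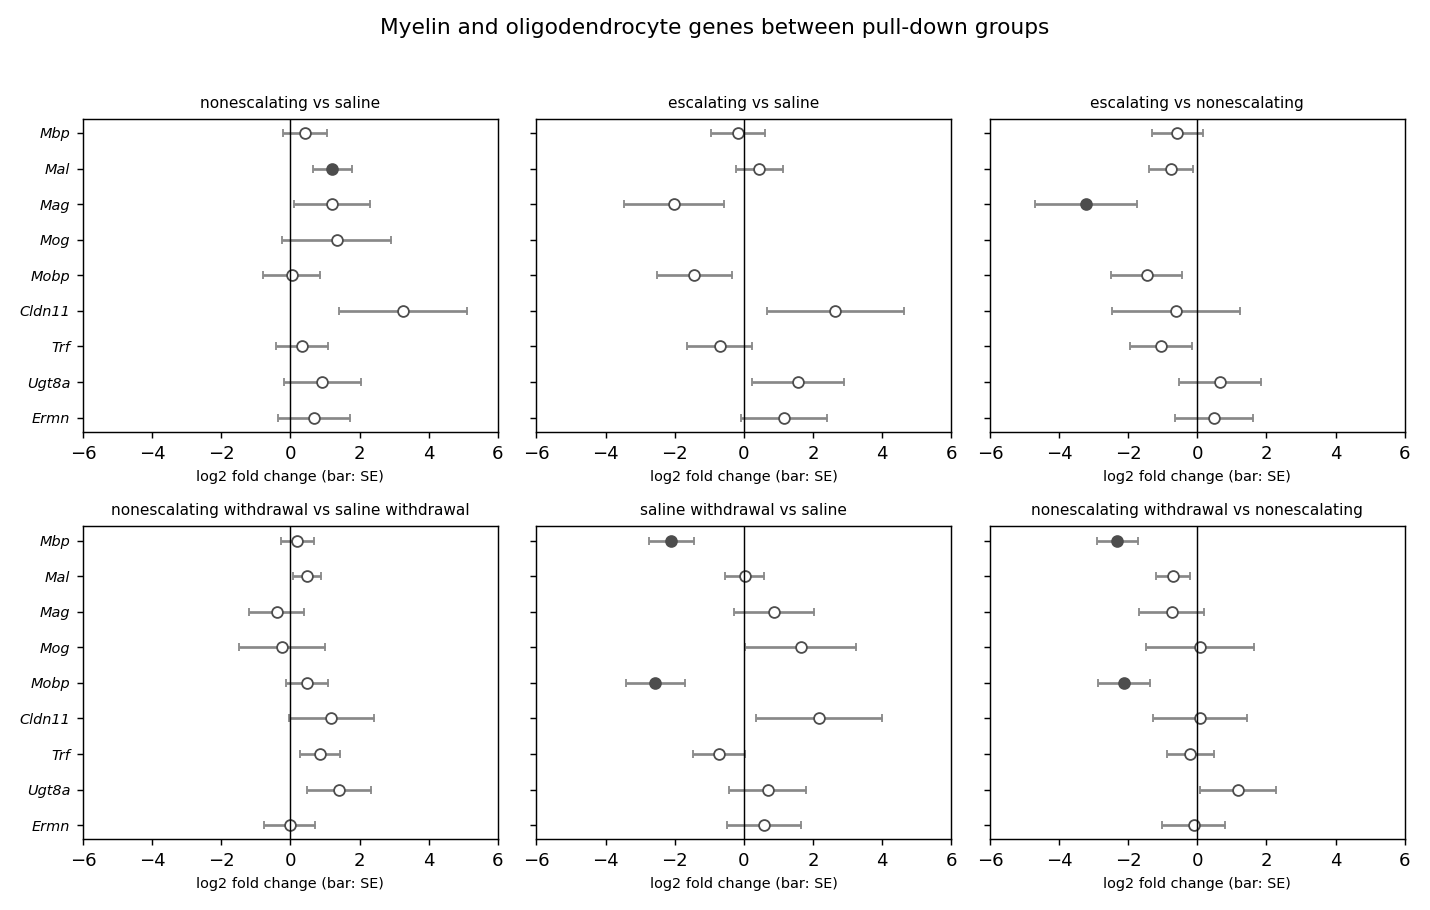
Log2 fold change of the 9 genes in 6 comparisons between pull-down groups, with bars of 1 SE; filled points have an unadjusted p under 0.05, and none passed adjustment. Mog is left out of the 2 escalating comparisons, where it had 1 count in all. In both comparisons of withdrawal libraries with libraries without withdrawal the filled points are Mbp and Mobp, between -2.10 and -2.57. Between the 2 withdrawal groups no point is filled.

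After withdrawal, nonescalating cocaine and saline libraries overlapped in all 9 genes. Here 0 genes passed (0%), DESeq2 and limma voom called none of the 9, and no member had an unadjusted p under 0.05 (3.49% of all genes). Of the 9, 6 were positive, against 53.5% of all genes (median log2 0.48, against 0.05 over all genes). Mbp stood at 69.6 to 263 CPM (median 122) in the 8 cocaine libraries and at 77.6 to 188 CPM (median 147) in the 6 saline libraries. Mobp stood at 32.3 to 238 CPM (median 87.2) and at 22.1 to 137 CPM (median 66.98). Both overlapped widely (log2 0.20, SE 0.47, and 0.48, SE 0.62, adjusted p = 1 each, by edgeR). Ugt8a, at 2.14 to 38.8 CPM in cocaine and 0.878 to 13.5 CPM in saline libraries, had the largest difference of the 9 (1.41, SE 0.94, adjusted p = 1). Within library set 1 and within set 2, 0 of the 9 passed.

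After withdrawal, Mbp and Mobp had the lowest fold changes of the 9 in saline and in cocaine mice. In saline mice all 6 libraries after withdrawal, at 77.6 to 188 CPM of Mbp, lay below the 3 without it, at 204, 253 and 1639.9 CPM, a separation found for 1 of the 9 and 1.08% of all genes. For Mobp, 3 of the 6, at 22.1 to 137 CPM (median 66.98), lay below all 3 libraries without withdrawal, at 151, 69.5 and 1087 CPM. The log2 fold change was -2.10 for Mbp (SE 0.65) and -2.57 for Mobp (SE 0.85), with an adjusted p of 0.742 for both by edgeR (unadjusted 0.00322 and 0.00617). In this comparison 0 genes passed (0%), 6.64% had an unadjusted p under 0.05 and 3.97% were lower at that p; DESeq2 and limma voom called none of the 9. The other 7 had a median of 0.69, and none had an unadjusted p under 0.05. The size of the difference rests on saline replicate 4: without it Mbp came to -0.52 and Mobp to -0.61. Within library set 1 alone the values were -2.09 and -2.61 (adjusted p = 0.983 each).

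Nonescalating cocaine mice, in libraries not shared with that comparison, had the same 2 genes at an unadjusted p under 0.05. Both comparisons came from the same fit, with a shared spread and library set term, so they are not independent. The 5 nonescalating libraries count as without withdrawal by their titles. By their description field, the comparison in cocaine mice would set withdrawal against withdrawal. Mbp stood at 69.6 to 263 CPM (median 122) in the 8 libraries after withdrawal and at 462, 97.0, 1449, 1834 and 838 CPM in the 5 without it. Mobp stood at 32.3 to 238 CPM (median 87.2) and at 187, 60.3, 424, 1100.5 and 467 CPM. Replicate 2 of the nonescalating group lay among the withdrawal libraries for both genes, and the other 4 lay above all 8 for Mbp and 3 of them above all 8 for Mobp. The log2 fold change was -2.31 for Mbp (SE 0.59) and -2.12 for Mobp (SE 0.76), with an adjusted p of 1 for both by edgeR (unadjusted 0.000582 and 0.0101); Mbp ranked 3 of 15854 genes by p. Again 0 genes passed (0%), 2.78% had an unadjusted p under 0.05, 1.58% were lower at that p, and DESeq2 and limma voom called none of the 9. Within set 1 alone the values were -2.17 and -1.93 (adjusted p = 1 each), and without replicate 4 of the nonescalating group, the library with little Drd2, they were -1.91 and -1.45. The other 7 had a median of -0.11.

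Among the further mature oligodendrocyte genes, 0 of 25 passed in either comparison, and 17 of 25 were negative in cocaine mice (median -0.41) and 14 of 25 in saline mice (median -0.08). Bcas1, a marker of oligodendrocytes that are forming myelin, came to -1.60 in cocaine mice (adjusted p = 1) and -1.91 in saline mice (adjusted p = 0.742). Of the listed genes of other glia none passed in either comparison; over all genes 49.5% were negative in cocaine and 52.5% in saline mice. Microglial genes were negative in 9 of 9 in both comparisons (median -1.55 in cocaine and -2.28 in saline mice), and astrocyte genes in 10 of 11 in cocaine mice (median -0.61) and 9 of 11 in saline mice (median -0.56), while those of oligodendrocyte precursors were positive in 6 of 11 in both (median 0.29 in cocaine and 0.12 in saline mice). The summed CPM of 10 microglial genes was 2.45 to 51.5 in the 14 libraries after withdrawal and 13.2 to 455 in the 10 without it, with Trem2 at 0 in 18 and C1qa in 17 of the 24 pull-downs. That of 11 astrocyte genes was 656 to 2426 and 455 to 2903, with Slc1a2, the main astrocytic glutamate transporter, above 0 in all 24. The part of these cells in the Mbp and Mobp values was not tested.

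The share of Mbp and Mobp in the summed CPM of the 9 genes shows the contrast library by library. It was 51.6% to 81.0% in the 14 pull-downs after withdrawal and 81.8% to 94.99% in 9 of the 10 without it, the exception being nonescalating replicate 2 at 49.5%. In the inputs it was 66.8% in the nonescalating and 66.9% in the saline library. The summed CPM itself was 162 to 608 after withdrawal, 318 to 3199 without it, and 2902 and 1222 in the inputs. The share was chosen after the values were seen and carries no test. Nonescalating libraries were placed by their titles here, and their description field would place them after withdrawal.

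**Figure D4:**
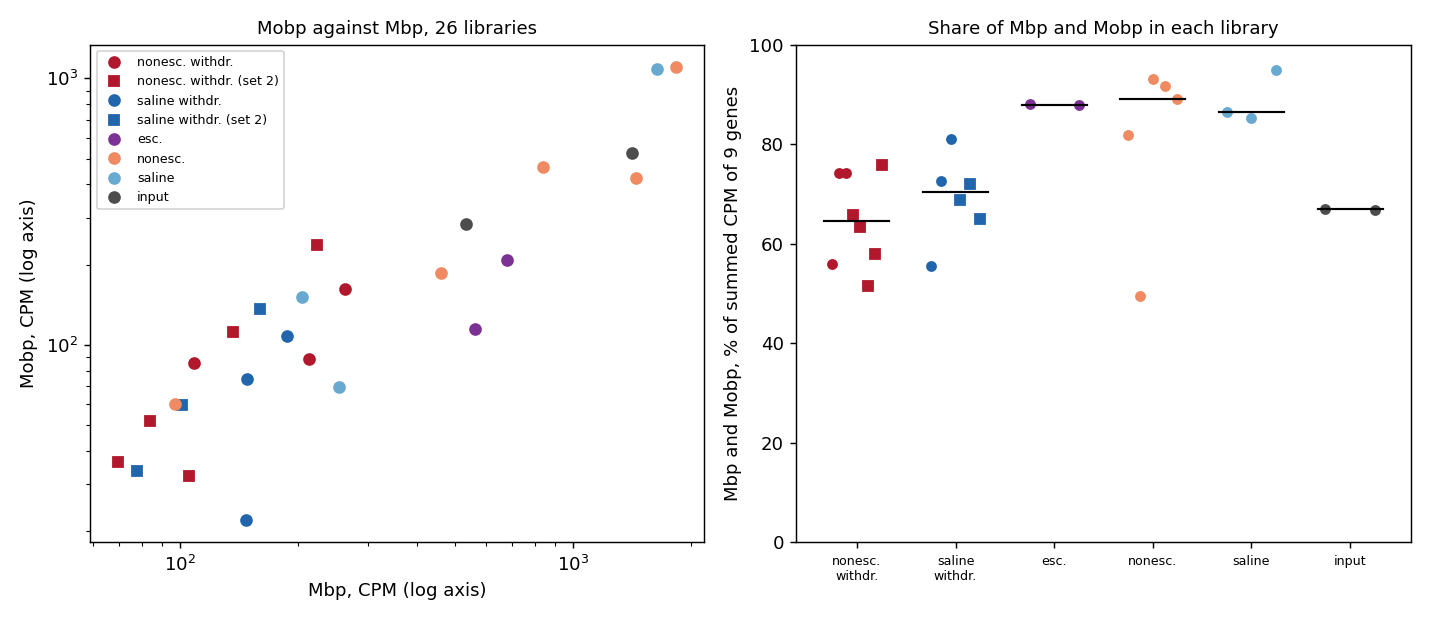
Left, Mobp against Mbp in each of the 26 libraries, in CPM on log axes. Right, the share of Mbp and Mobp in the summed CPM of the 9 genes, in percent, by group, with medians as lines; squares are libraries numbered from 1836. The 14 withdrawal libraries sit between 51.6% and 81.0%, and 9 of the 10 pull-downs without withdrawal sit above them.

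The effect of cocaine after withdrawal did not differ detectably from its effect without withdrawal in any of the 9 genes. The difference of the 2 effects was -0.21 for Mbp (SE 0.79) and 0.45 for Mobp (SE 1.02), with an adjusted p of 1 for all 9 by edgeR; 0 genes passed (0%), 0 of 9 had an unadjusted p under 0.05 and 4.89% of all genes did. The sign of both values turned when single libraries were left out. Between library sets 2 and 1, estimated from the 14 withdrawal libraries, 145 genes passed (0.915%) and none of the 9, with a median log2 of -0.25 and the smallest p for Mag (-1.55, SE 0.80, adjusted p = 0.398). No member had an unadjusted p under 0.05 there, against 13.5% of all genes.

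Across the 24 pull-downs Mbp and Mobp varied together, and the other members did so weakly. Of 36 pairs of members, 32 had a Pearson r above 0 on log2 CPM (median 0.169). Mbp and Mobp had r = 0.890 and Spearman's rho = 0.874, each with a permutation p of 1e-05, the smallest that 100000 resamples can give (0.00036 after adjustment over 36 pairs, two-sided). It was the one pair to pass. Without the 2 libraries farthest from the median of Mbp r was 0.818, within the 10 libraries without withdrawal 0.901, and within the 14 after withdrawal 0.712. The next pairs were Mbp with Trf (r = 0.525, rho = 0.422, adjusted permutation p = 0.148) and Mobp with Trf (0.505), and the lowest was Mag with Ugt8a (r = -0.404, adjusted permutation p = 0.255). Mog had at most 3 counts in 8 libraries, Cldn11 in 9, Mag in 3, and Ugt8a and Ermn in 1 each. Such low counts limit what their correlations can show.

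Genes with a pattern most like that of the 9 were ranked by r between their log2 CPM and the mean standardised level of the members over the 24 pull-downs, among 10171 genes whose 5th and 95th percentiles of r were -0.42 and 0.37. Outside the fixed lists the highest were Rorb, a nuclear receptor (0.807), Ntsr2, a neurotensin receptor of astrocytes (0.748), Kcnj10, a potassium channel of astrocytes and oligodendrocytes (0.737), Ptprd, a receptor phosphatase (0.683), Nckap5 (0.672), AK140265 (0.670), Cast, the calpain inhibitor calpastatin (0.670), and Tril, a glial Toll-like receptor partner (0.661). All these libraries share the depth, scaling and set differences given above, and no p is attached. Drd2 had an r of -0.520 with the members and Malat1 one of 0.335.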

How the data were processed

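RNA-seq libraries of pulled-down and input RNA were analysed from the raw read counts per gene that the authors deposited, whole numbers that are not normalized. STAR 2.0.0e and HTSeq with build mm10 made them, per the submitters' processing notes; the annotation and the strand setting were not given in the sources used here. HTSeq summary rows were left out; 13.7% to 48.6% of a pull-down library's records fell in genes. Genes listed in all 26 files were used, 99.0% to 99.3% of gene counts. Groups and replicate numbers follow the titles. Tests used R 4.3.3 with edgeR 4.0.16 (quasi-likelihood, robust dispersion, TMM, filterByExpr with a minimum count of 10, Benjamini-Hochberg over all genes tested, threshold 0.05); alternatives used DESeq2 1.42.0 and limma 3.58.1. Pull-down against input has agent as a term, and the fit of 24 pull-downs has group and library set. Levels are CPM with TMM factors over 26 libraries; 3 counts equal 0.201 to 2.24 CPM in pull-downs. CPM per kb uses the union of exons. The tests were checked on simulated counts: of genes changed by a log2 of 3, 21.6% were called in pull-down against input, 38% in nonescalating against saline and 46% in nonescalating withdrawal against nonescalating, and of those changed by 2, 2%, 19% and 34%, so most changes of these sizes were missed. Named are all 9 genes, in each list the 1 or 2 with the smallest p where none passed, and the 8 most similar genes outside the lists with mean log2 CPM of at least 2. The genes, lists and tests were chosen with earlier results of these data known. Results for 1 item are not reported here.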

Additional observations from a re-analysis of the deposited data

Results flagged for a closer look

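In 27 combinations of a gene and a group of 4 to 10 libraries, 3 held a highest library set far from the rest of its group. The rule marks about 1 in 20 groups of normally distributed values. That rate need not hold for Mog and Cldn11, which had at most 3 counts in 8 and 9 of the 24 pull-downs. Mog stood at 27.3 CPM in nonescalating withdrawal replicate 4 of library set 2 (library 1842), and the next of the 8 libraries at 9.40 CPM. Cldn11 stood at 35.4 CPM in nonescalating replicate 4 (library 1813), and the next of the 5 at 4.50 CPM; this is the library with the least Drd2. Cldn11 stood at 28.2 CPM in nonescalating withdrawal replicate 4 of set 1 (library 1823), and the next of the 8 at 6.81 CPM.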

How the results depend on the processing

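The median log2 fold change of the 9 genes in pull-down over input stayed between -2.74 and -2.37 when single libraries were left out, while the number called depended on the test. Members called there were 4 with the 16 pull-downs of set 1 (Ermn, Mal, Trf and Ugt8a), 1 with all 24 (Trf), 3 with DESeq2, 7 with limma voom, 1 with no filter and 1 with a stricter filter on low counts (Trf both times), and 0 to 2 with single libraries left out: without saline replicate 3 Trf and Ugt8a passed, without saline replicate 1 or 4 Ermn did, and without nonescalating replicate 3 Trf did. All genes called were then 160, 11, 757, 1090, 132 and 118, and 1 to 252. The sign of Mobp turned in pull-down over input with the 16 libraries (-0.58), with all 24 (-0.93) and with limma voom (-0.11), and single libraries moved it from -0.80 to 0.64 and Mbp from -0.90 to 0.42. For the difference of the cocaine effects, limma voom gave Mbp 0.36, and single libraries moved Mbp from -1.80 to 0.22 and Mobp from -1.51 to 1.11. The cause was not tested.

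Among pull-down groups, DESeq2 called 34 genes in nonescalating and 143 in escalating cocaine against saline, 225 in escalating against nonescalating (limma voom 8, set 1 alone 2, single libraries left out 0 to 2; against saline 0 to 1), 2 in cocaine against saline after withdrawal, 30 in saline withdrawal against saline, 11 for the difference of effects, and 679 between library sets (limma voom 474, only the groups compared 351, single libraries 50 to 203, among them 77, 91 and 94 without saline withdrawal replicate 1 of set 1, saline withdrawal replicate 3 of set 2 and nonescalating withdrawal replicate 4 of set 2), none of them a member except 1 between sets with limma voom. Without escalating replicate 2 the median of the 9 against nonescalating was -1.97. No label says that replicate numbers pair the libraries, and the data did not settle it. Deviations were compared only between libraries of different groups within the same set. The 25 same-numbered pairs had a median r of 0.151, with 14 over 0.1. The 90 other pairs had a median r of -0.025, with 28 over 0.1. Whether same-numbered withdrawal libraries of the 2 sets share animals was not tested, as no such pair was included. With the number as a block, 93 genes passed between sets and no member in any comparison; Mbp came to -1.17 and Mobp to -1.58 in saline withdrawal, -2.02 and -1.67 in cocaine withdrawal, and Mobp to -0.091 for the difference. With 2 inputs, no escalating input and few counts of Mog and Cldn11, differences in these genes could be missed, large ones included. The values within set 1 alone for comparisons with groups without withdrawal were chosen after seeing the data.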
